A study of Sus scrofa with 24 samples.

Results

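Expression of 10 genes that encode matricellular and elastic fibre proteins was followed in pig preadipocytes during adipogenic culture: MGP, POSTN, TNC, SPARC, SPP1, FN1, ELN, FBN1, FBLN1 and LOX. The genes were chosen by name from 25462 genes, with earlier results of the same libraries known, so that the values that had drawn attention to them were part of the choice. These were the fall of MGP between day 0 and day 2 in subcutaneous cells, the depot difference of MGP on day 4 and the depot difference of POSTN on day 0, which are given below as descriptions with no test. Other comparisons of MGP and POSTN that use 1 of the groups behind these differences (BF-0d, BF-2d, BF-4d and IMF-4d for MGP, BF-0d and IMF-0d for POSTN) are likewise given without a p-value, and counts of called genes that include them are descriptions. All 10 genes were found in the table, and all 10 passed the filter on low values, which left 16135 genes to test.

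Matricellular proteins are secreted into the extracellular matrix, where they act on cell adhesion and growth factor signalling more than they bear load. Elastic fibres consist of an elastin core on a scaffold of fibrillin microfibrils, to which fibulins bind, and lysyl oxidase crosslinks elastin and collagen. Preadipocytes are known to remodel a fibronectin-rich matrix as they round up and store lipid.

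The cells came from 6-day-old Yorkshire piglets. Subcutaneous preadipocytes were taken from back fat (BF) and intramuscular preadipocytes from the longissimus dorsi muscle (IMF). RNA-seq was made from each depot on days 0, 2, 4 and 8, with 3 libraries in each of the 8 groups and 24 in all. The groups were BF-0d and IMF-0d (preadipocytes in growth medium, before induction), BF-2d and IMF-2d (after induction medium with 3-isobutyl-1-methylxanthine, dexamethasone and insulin), BF-4d and IMF-4d (after maintenance medium with insulin) and BF-8d and IMF-8d (after a return to growth medium). No transgene or edit is named for any group, and the cells were primary cultures isolated by collagenase digestion with no sort, so that other cells of the tissue could be present. The source was 3 piglets, and the labels do not say whether the 3 libraries of a group came from separate animals, so the p-values measure only the spread between these libraries, which may be technical.

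Levels are FPKM, fragments per kilobase of transcript scaled by the mapped fragments of the library, and the number of reads behind each value is unknown. Differences are in log2(FPKM + 1), a scale on which changes of low genes come out too small, with standard errors (SE) and adjusted p-values from limma over all 16135 genes. A gene was called changed at an adjusted p below 0.01 and a log2 difference of at least 1 in either direction. In bulk RNA, fewer cells of a type and less RNA per cell cannot be told apart.

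The cultures carried stromal markers at high levels, with a summed FPKM of 5 markers between 1835 and 7590. Of the adipocyte markers, ADIPOQ was listed at 0 in 17 of 24 libraries and reached 0.230 FPKM, and PLIN1 was listed at 0 in 16 and reached 0.0773. FABP4, CIDEC and LEP reached 5.996, 1.154 and 0.0313 FPKM and were listed at 0 in 7, 2 and 22 libraries. LPL, PPARG and CEBPA went different ways in BF, where the group means on days 0, 2, 4 and 8 were 2.22, 55.5, 222 and 422 FPKM for LPL, 3.003, 2.76, 1.58 and 0.973 for PPARG and 2.26, 9.37, 4.02 and 2.35 for CEBPA. In IMF they were 1.06, 2.45, 5.496 and 120.4 FPKM for LPL, 0.256, 0.473, 0.854 and 0.123 for PPARG and 1.75, 2.89, 5.89 and 1.76 for CEBPA. Of 5 adipocyte markers tested, 2, 3, 1 and 1 were called lower in IMF on days 0, 2, 4 and 8 and 0 were called higher, beside 2.58%, 4.74%, 11.3% and 6.96% of all tested genes called, with medians of -0.63, -1.15, -0.47 and -0.79 against 0.02, 0.07, 0.07 and 0.04 for all, so that these markers also moved with depot. Those called were PPARG and FABP4 on day 0, PPARG, CEBPA and LPL on day 2, LPL on day 4 and FABP4 on day 8, and the day 2 call of PPARG was lost without BF-2d replicate 3 (-0.63) or any IMF-2d library, with no filter and with only the compared libraries, while CEBPA and LPL were -1.37 and -4.59 without BF-2d replicate 3. With only the compared libraries, the calls of LPL on day 2 and FABP4 on day 8 were lost. Of 8 myogenic markers, MYF5 and MYOD1 were listed at 0 in all 24 libraries and DES, the desmin gene, was the 1 that passed the filter. DES was 29.6 to 45.3 FPKM in IMF-0d and 4.50 to 4.88 in BF-0d, and was called higher in IMF on days 0, 2, 4 and 8, by 2.72, 1.25, 3.61 and 1.33, so that this muscle marker moved with depot beside every depot difference below. The DES call on day 2 was lost without BF-2d replicate 1 or 2 or IMF-2d replicate 1 or 3 and with only the compared libraries, and was 1.78 without BF-2d replicate 3, and that on day 8 was lost without IMF-8d replicate 3. The part of cells with DES or adipocyte markers in the results was not tested. The library BF-2d replicate 3 stood apart from its group: LPL was 6.71 FPKM there against 82.1 and 77.7 in the other BF-2d libraries, and for 8 of the 10 genes its level lay between the BF-0d mean and the other BF-2d libraries. Called differences of named genes that use the BF-2d libraries are therefore also given without it, except the changes of DES between days.

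The 10 genes together took 1.80% to 1.95% of the summed FPKM of the BF-0d libraries, 0.666% to 1.42% in BF-2d, 0.699% to 0.977% in BF-4d and 1.04% to 1.24% in BF-8d. In IMF the share was 1.75% to 1.99%, 1.98% to 2.26%, 2.03% to 2.21% and 1.50% to 1.84% on days 0, 2, 4 and 8. From day 2 on, every IMF library had a higher share than every BF library of the same day, whereas on day 0 the depots overlapped. FN1 and SPARC made up most of it, ranking 9th and 14th of all genes by mean FPKM. SPP1 was the lowest of the 10, with a median of 3.83 FPKM over the libraries. The ratio of the highest to the lowest group mean ran from 3.01 for FN1 to 77.9 for MGP.

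**Figure D1:**
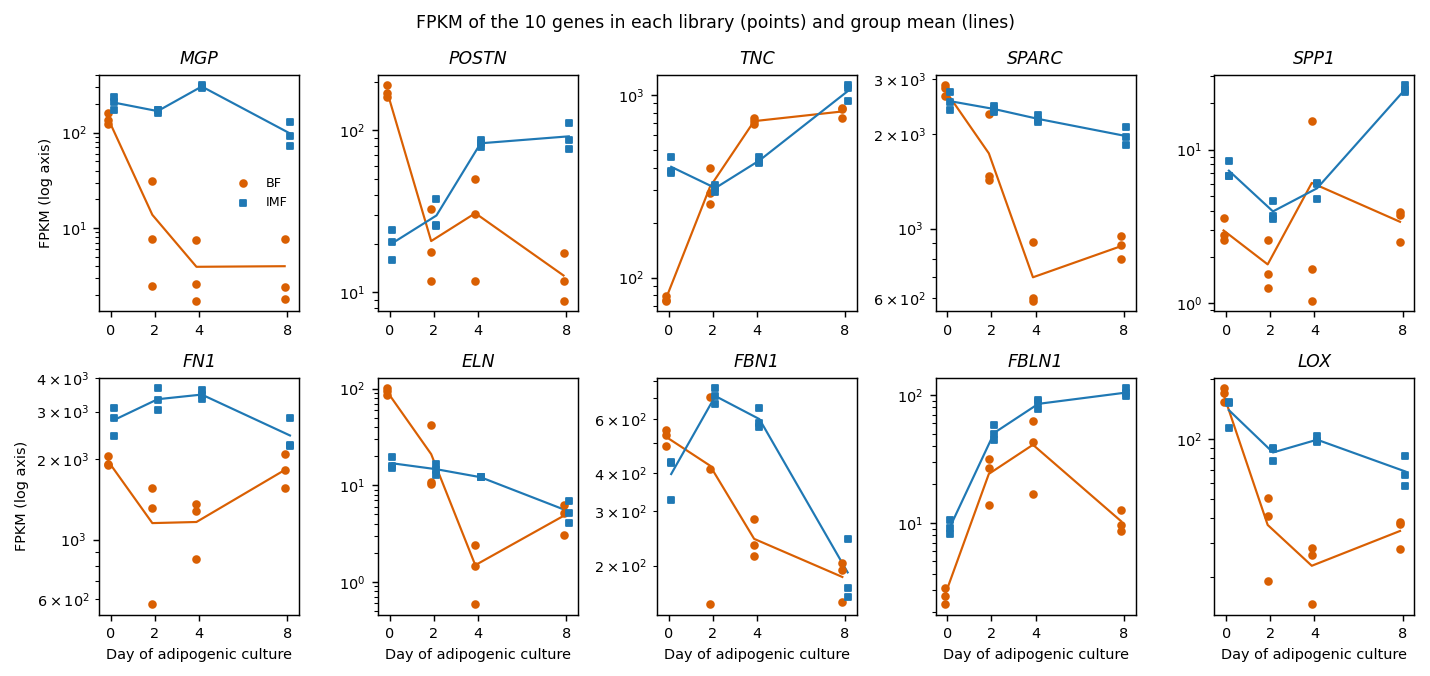
FPKM (log axis) of each of the 10 genes against day of adipogenic culture, with 1 point per library (circles BF, squares IMF) and lines through the group means. MGP stayed between 72.2 and 314 FPKM in IMF and lay between 1.73 and 31.2 in BF from day 2 on, while TNC rose from 76.4 to 812 FPKM in BF.

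The 250 bases before the annotated RefSeq start in Sscrofa11.1 are shown for MGP, POSTN and TNC, picked after their values were seen as examples of genes that fell (MGP and POSTN) and rose (TNC) in BF cells over the same interval. The MGP gene lies on the plus strand at chr5:57665272-57669360, POSTN on the minus strand at chr11:13225183-13258973 and TNC on the minus strand at chr1:255533235-255630381. The windows shown are chr5:57665022-57665271, chr11:13258974-13259223 and chr1:255630382-255630631, each written 5′ to 3′ on the strand of its gene. Capitals mark matches, on either strand, to the letters searched.
MGP: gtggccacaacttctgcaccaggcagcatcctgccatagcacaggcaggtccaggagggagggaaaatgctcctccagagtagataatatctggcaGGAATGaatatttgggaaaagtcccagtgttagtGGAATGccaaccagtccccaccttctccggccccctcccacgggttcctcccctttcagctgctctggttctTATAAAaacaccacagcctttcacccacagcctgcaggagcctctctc
POSTN: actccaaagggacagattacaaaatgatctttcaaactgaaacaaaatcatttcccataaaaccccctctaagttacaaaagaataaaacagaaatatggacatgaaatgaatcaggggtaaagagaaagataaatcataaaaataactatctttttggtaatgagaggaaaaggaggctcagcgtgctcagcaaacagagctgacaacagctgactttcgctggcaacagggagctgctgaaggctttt
TNC: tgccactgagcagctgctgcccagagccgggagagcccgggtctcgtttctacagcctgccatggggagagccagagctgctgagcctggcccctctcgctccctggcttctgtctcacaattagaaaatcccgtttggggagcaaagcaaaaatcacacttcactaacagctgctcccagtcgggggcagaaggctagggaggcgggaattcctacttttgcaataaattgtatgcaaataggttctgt
The letters searched were TATAAA (a core promoter box), CCAAT (the NF-Y motif), GGGCGG (an Sp1 motif), TGACTCA (the AP-1 motif), CATTCC (the TEAD motif) and TGTTCT (a half-site of the glucocorticoid receptor element), none of which overlapped another in these windows. The MGP window held TATAAA 48 bases before the start and CATTCC on the minus strand at 154 and 120 bases, and the POSTN and TNC windows held none of the 6. Among windows of the same length at 19548 protein-coding genes, TATAAA was found in 9.77% and CATTCC in 10.3%. Over all 10 genes, GGGCGG was found in 4 windows (45.9% of all genes), CCAAT in 2 (31.9%), TGTTCT in 1 (10.3%) and TGACTCA in 0 (2.9%). A match is a description of letters and not a binding site.

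MGP encodes matrix Gla protein, a vitamin K-dependent inhibitor of calcification. In BF-0d it was 123, 135 and 160.3 FPKM. In BF-2d it was 2.46, 7.60 and 31.2 FPKM, in BF-4d 2.61, 7.42 and 1.73, and in BF-8d 7.71, 2.405 and 1.82. Every BF library from day 2 on was below every BF-0d library, and the highest of them was BF-2d replicate 3. In IMF the levels were 174, 239 and 208 on day 0, 173, 159 and 173 on day 2, 297, 314 and 305 on day 4, and 129, 72.2 and 93.4 on day 8. No IMF library overlapped the BF libraries of days 2, 4 and 8, and the order of group means was IMF-4d, IMF-0d, IMF-2d, BF-0d, IMF-8d, BF-2d, BF-8d and BF-4d. Within that order, IMF-2d and BF-0d, BF-0d and IMF-8d, and the 3 later BF groups overlapped their neighbours.

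POSTN encodes periostin, a matricellular protein that binds integrins and collagen. Its BF-0d levels were 161, 171 and 189.9 FPKM against 20.4, 24.2 and 15.7 in IMF-0d. In BF it then measured 17.6, 11.7 and 32.8 on day 2, 50.1, 30.5 and 11.7 on day 4, and 17.4, 8.88 and 11.8 on day 8. The IMF levels were 37.6, 26.2 and 25.6 on day 2, 83.4, 79.2 and 87.1 on day 4, and 77.1, 110.9 and 87.6 on day 8. POSTN was thus higher in every BF library than in every IMF library on day 0, overlapped between depots on day 2, and was higher in every IMF library on days 4 and 8.

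TNC encodes tenascin-C, a hexameric matrix protein linked to tissue remodelling. In BF it was 74.8, 79.5 and 75.1 FPKM on day 0, 398, 290.1 and 253 on day 2, 717, 745 and 695 on day 4 and 848, 753 and 837 on day 8, with no overlap between successive days. In IMF it was 455, 373 and 384 on day 0, 309.5, 295.5 and 322 on day 2, 430.0, 459 and 425 on day 4 and 926, 1130 and 1090 on day 8. The IMF libraries were above those of BF on day 0, overlapped them on day 2, lay below them on day 4 and above them on day 8.

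SPARC encodes a collagen-binding matricellular glycoprotein. It was 2639, 2865 and 2817 FPKM in BF-0d, 1432, 1467 and 2316 in BF-2d, 908, 589 and 601 in BF-4d and 801, 948 and 889 in BF-8d. The IMF levels kept to a narrower range, from 1844 FPKM on day 8 to 2735 on day 0. SPARC overlapped between depots on day 0 only, and the BF library nearest to those of IMF on day 2 was replicate 3.

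SPP1 encodes osteopontin, a secreted integrin ligand. It was 2.55, 2.78 and 3.57 FPKM in BF-0d, 1.24, 2.56 and 1.54 in BF-2d, 1.03, 1.67 and 15.5 in BF-4d and 3.92, 2.48 and 3.74 in BF-8d. Only BF-4d replicate 3 lay far above its group, and the same library held 17.1 FPKM of the monocyte marker CD14 against 2.87 and 2.095 in the other BF-4d libraries, while the pan-leukocyte marker PTPRC was listed at 0 in all BF-4d libraries. In BF-8d, CD14 was 5.996, 10.7 and 8.69 FPKM, above its level in BF-4d replicates 1 and 2, with SPP1 at no more than 3.92. The part of CD14-expressing cells in this value was not tested. In IMF, SPP1 was 6.75, 8.39 and 6.71 on day 0, 3.51, 3.71 and 4.62 on day 2, 6.06, 5.97 and 4.73 on day 4 and 26.3, 24.4 and 23.8 on day 8, so that the 3 IMF-8d libraries were the highest of all 24.

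FN1 encodes fibronectin, an adhesive matrix glycoprotein. It was 1902, 2057 and 1916 FPKM in BF-0d, 1318, 577 and 1563 in BF-2d, 1282, 1362 and 849 in BF-4d and 1813, 1558 and 2084 in BF-8d. In IMF it ranged from 2431 to 3096 on day 0, from 3035 to 3659 on day 2, from 3357 to 3609 on day 4 and from 2239 to 2846 on day 8. Every IMF library was above every BF library of its day.

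ELN encodes tropoelastin. In BF it was 85.2, 94.4 and 100.3 FPKM on day 0, 10.3, 10.9 and 41.6 on day 2, 2.42, 1.45 and 0.591 on day 4 and 5.17, 3.05 and 6.19 on day 8. In IMF it was 15.9, 15.1 and 19.5 on day 0, 14.5, 16.7 and 12.7 on day 2, 12.09, 12.02 and 12.17 on day 4 and 5.13, 4.01 and 6.91 on day 8. The BF-0d libraries were the highest of all and the BF-4d libraries the lowest, a ratio of means of 62.9, and the depots overlapped on days 2 and 8.

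FBN1 encodes fibrillin-1, the main protein of microfibrils. It was 532, 552 and 491 FPKM in BF-0d, 413, 150.2 and 705 in BF-2d, 285, 234 and 215 in BF-4d and 152, 205 and 194 in BF-8d. The BF-2d libraries spread over nearly the whole range of the gene, and replicate 3 was their highest. In IMF it was 433, 431 and 327 on day 0, 712, 671 and 754 on day 2, 566, 580.2 and 651 on day 4 and 158, 244 and 169 on day 8, so that the 3 IMF-8d libraries lay below all other IMF libraries.

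FBLN1 encodes fibulin-1, which binds fibronectin and elastic fibres. It was 2.67, 2.33 and 3.09 FPKM in BF-0d, 27.1, 31.6 and 13.9 in BF-2d, 42.8, 63.0 and 16.8 in BF-4d and 8.69, 12.6 and 9.62 in BF-8d. In IMF it was 9.12, 8.20 and 10.6 on day 0, 49.3, 58.3 and 44.3 on day 2, 90.8, 87.6 and 77.7 on day 4 and 104, 97.5 and 113 on day 8. It was higher in every IMF library than in every BF library of the same day, and in IMF each day lay above the day before without overlap.

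LOX encodes lysyl oxidase, which starts the crosslinking of elastin and collagen. It was 154, 179.9 and 169.8 FPKM in BF-0d, 40.7, 19.3 and 50.5 in BF-2d, 28.1, 25.9 and 14.7 in BF-4d and 38.0, 27.8 and 37.2 in BF-8d. In IMF it was 152, 154 and 114 on day 0, 90.1, 77.7 and 88.7 on day 2, 97.3, 96.9 and 103 on day 4 and 57.9, 81.9 and 65.8 on day 8. On day 0 the lowest BF library and the highest IMF library were level at 154 FPKM, and from day 2 on every IMF library was above every BF library of its day.

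The first comparison asked how the depots differed on each day. On day 0, TNC and FBLN1 were higher in IMF and POSTN and ELN were lower. TNC was 2.38 higher (SE 0.13, adjusted p = 3.17e-10) and FBLN1 1.48 higher (SE 0.32, adjusted p = 0.00288), whereas ELN was lower, with a difference of -2.41 (SE 0.36, adjusted p = 7.12e-05), and POSTN differed by -3.07 (SE 0.37). In all, 4 of the 10 genes were called, while 2.58% of all tested genes were called. The POSTN difference was known when the genes were chosen, so nothing is read from this count against that share. The median difference of the 10 genes was 0.19, and that of all tested genes was 0.02. The FBLN1 call was lost without BF-0d replicate 1 or 2 or without IMF-0d replicate 1 or 3, with differences of 1.39 to 1.49 and adjusted p-values of 0.0115 to 0.0171. SPP1 differed by 1.07 and was not called (adjusted p = 0.141), but was called without BF-4d replicate 3, the library with the high SPP1 value, which entered the shared estimate of spread (adjusted p = 1.77e-04), and with only the 6 compared libraries.

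On day 2, MGP, FN1 and LOX were higher in IMF, by 4.10 (SE 0.56, with no test), 1.65 (SE 0.25, adjusted p = 1.11e-04) and 1.3 (SE 0.26, adjusted p = 0.00124). These were 3 of the 10 genes, all higher in IMF, against 4.74% of all tested genes called and 2.71% called higher. The BF-2d levels of MGP were known when the genes were chosen, so nothing is read from this count. The median difference was 0.93 for the 10 genes and 0.07 for all. TNC, which had differed on day 0, was at 314 ± 75.3 FPKM in BF and 309 ± 13.4 in IMF (SD, n = 3 each) and was not called. Without BF-2d replicate 3, FBN1 was also called, 1.51 higher in IMF (adjusted p = 3.22e-04), MGP was 4.96 higher, FN1 1.93 and LOX 1.57, and the difference of ELN moved from -0.21 to 0.42, not called either way, while without BF-2d replicate 2 LOX was not called (0.90). FBLN1 differed by 1.10 (adjusted p = 0.0148) and was called without BF-4d replicate 2 or 3, which entered through the shared spread. Neither the FN1 nor the LOX call was kept when the fit held only the 6 compared libraries, and MGP, given with no test, then fell short of the limits of a call.

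On day 4, 8 of the 10 genes were higher in IMF and none was called lower. Among all tested genes 11.3% were called and 6.6% were called higher in IMF. MGP was part of the choice on this day, so the count is given without a reading. MGP had the largest difference of the 10, 6.13 (SE 0.56), with 305 ± 8.75 FPKM in IMF and 3.92 ± 3.07 in BF (SD, n = 3 each). ELN was 2.47 higher (SE 0.36, adjusted p = 1.56e-05), LOX 2.12 (SE 0.26, adjusted p = 2.25e-06) and SPARC 1.71 (SE 0.17, adjusted p = 1.17e-07). POSTN was higher by 1.62 (SE 0.37, adjusted p = 0.00152), FN1 by 1.61 (SE 0.25, adjusted p = 3.88e-05), FBN1 by 1.3 (SE 0.33, adjusted p = 0.00348) and FBLN1 by 1.23 (SE 0.32, adjusted p = 0.00384). TNC was the gene with the opposite sign, -0.71 (adjusted p = 2.09e-04), under the fold limit of a call, and SPP1 overlapped between depots. The median was 1.61 for the 10 genes and 0.07 for all tested genes.

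The calls of POSTN, FBN1 and FBLN1 on day 4 depended on single libraries. Without BF-4d replicate 3, POSTN was 1.07 higher (adjusted p = 0.0121), FBN1 1.21 (adjusted p = 0.0151) and FBLN1 0.70 (adjusted p = 0.0279), and none of them was called, whereas SPP1 was then called 1.49 higher in IMF (adjusted p = 6.49e-06). FBN1 was also lost without BF-4d replicate 2, IMF-4d replicate 2 or IMF-4d replicate 3, at differences of 1.24 to 1.32, and FBLN1 without IMF-4d replicate 1 or 2, at 1.18 and 1.21. A fit of just the 6 libraries of day 4 called neither POSTN nor FBLN1, and FBLN1 was not called after median ratio scaling either. ELN, LOX, SPARC and FN1 kept their calls without any one of the 6 libraries.

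On day 8, 5 of the 10 genes were called, all higher in IMF, against 6.96% of all tested genes called and 4.31% called higher. The genes were chosen with earlier results of these libraries known, so nothing is read from this count. MGP was 4.46 higher (SE 0.56, adjusted p = 5.92e-06), FBLN1 3.24 (SE 0.32, adjusted p = 2.21e-07), POSTN 2.79 (SE 0.37, adjusted p = 9.92e-06), SPP1 2.58 (SE 0.46, adjusted p = 2.12e-04) and SPARC 1.17 (SE 0.17, adjusted p = 1.92e-05). The elastic fibre genes ELN and FBN1, which differed on day 4, had means of 5.35 ± 1.46 and 190 ± 46.8 FPKM in IMF-8d and 4.81 ± 1.60 and 184 ± 27.6 in BF-8d (SD, n = 3 each) and overlapped. LOX was 0.98 higher (adjusted p = 0.00588), just under the fold limit, and was called without BF-8d replicate 1 (1.05) or IMF-8d replicate 1 (1.09). The median was 1.07 against 0.04 for all tested genes, and the SPARC call was lost after quantile normalization.

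**Figure D2:**
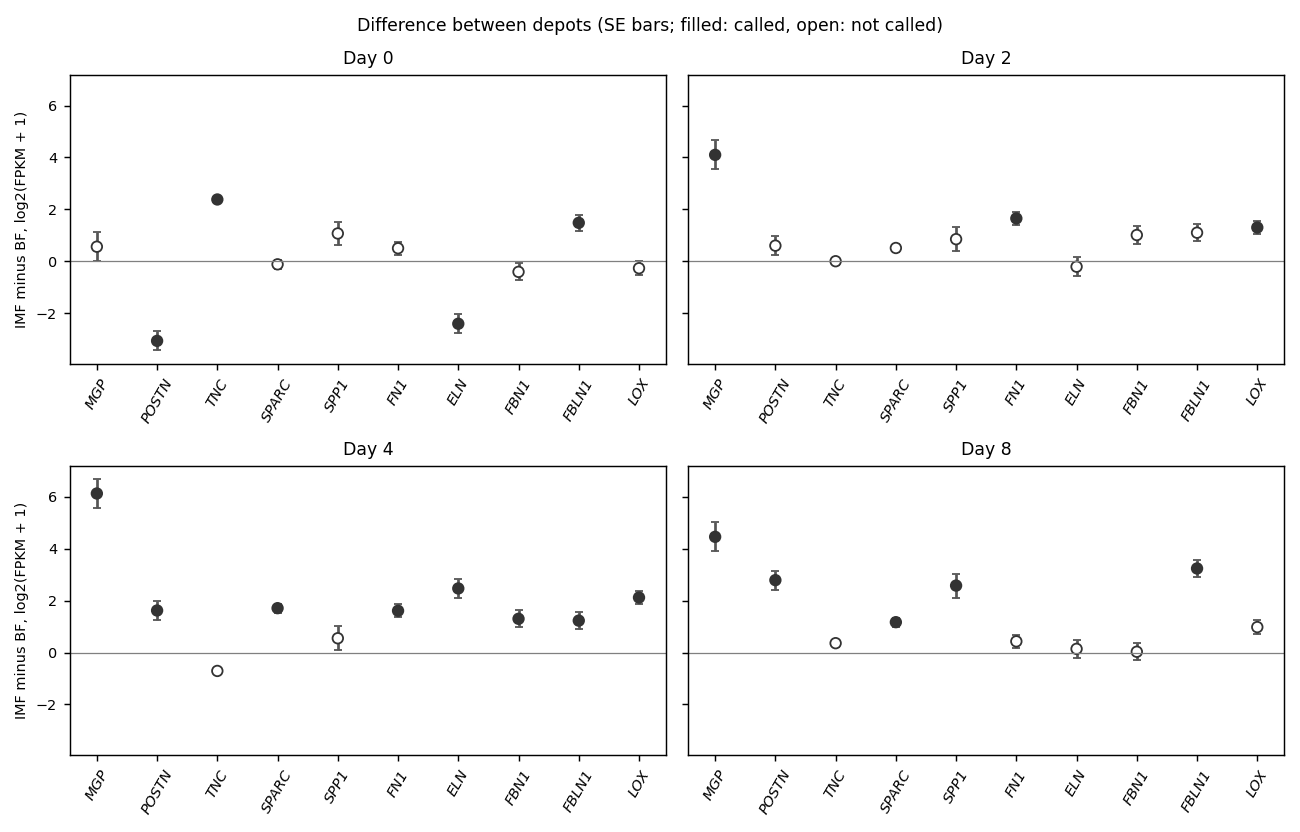
Difference between depots (IMF minus BF, log2(FPKM + 1), vertical axis) for each gene on each day, with bars of 1 SE. Filled points passed the limits of a call and open points did not. The points of POSTN on day 0 and of MGP before day 8 are descriptions with no test. On day 4 the points of 8 genes are filled, and those other than MGP lie between 1.23 and 2.47.

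The next comparisons asked how each gene changed between successive days within a depot. In BF from day 0 to day 2, TNC and FBLN1 rose and MGP, POSTN, ELN and LOX fell. FBLN1 rose by 2.70 (SE 0.32, adjusted p = 3.16e-06) and TNC by 2.00 (SE 0.13, adjusted p = 3.09e-09). ELN fell by 2.39 (SE 0.36, adjusted p = 4.64e-05) and LOX by 2.26 (SE 0.26, adjusted p = 2.45e-06), and the differences with no test were -3.82 for MGP (SE 0.56) and -3.13 for POSTN (SE 0.37). In all, 6 of the 10 genes were called, 4 of them lower, while 6.59% of all tested genes were called and 3.87% were called lower. MGP was chosen with its fall known and POSTN with its BF-0d levels known, and nothing is read from the count. The median was -0.80 against -0.04 for all tested genes.

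Without BF-2d replicate 3, the calls of TNC, FBLN1, ELN and LOX in BF from day 0 to day 2 stayed in place and FN1 (-1.17, adjusted p = 9.95e-04) and FBN1 (-1.07, adjusted p = 0.00478) were called as well, with 1615 genes called in all. FN1 was also called without BF-2d replicate 1 (-1.04). Without BF-2d replicate 3 the difference of MGP was -4.68, that of ELN -3.02, that of LOX -2.54, that of POSTN -3.51, that of FBLN1 3.04 and that of TNC 2.14. With only the 6 compared libraries in the fit, ELN and LOX were not called, and MGP, given with no test, fell short of the limits of a call. Quantile normalization added FN1 and SPARC to the calls.

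From day 2 to day 4 in BF, ELN fell by 2.92 (SE 0.36, adjusted p = 2.28e-05), SPARC fell by 1.31 (SE 0.17, adjusted p = 3.13e-05) and TNC rose by 1.22 (SE 0.13, adjusted p = 6.68e-06). These 3 of 10 genes stand beside 3.35% of all tested genes called. The median was -0.22 against 0.02. With only the 6 compared libraries in the limma fit, 0 of the 16135 genes were called and 2981 had an unadjusted p below 0.05. Without BF-2d replicate 3 the differences were -2.29, -1.08 and 1.08. Calls were gained by FBN1 and LOX without BF-2d replicate 2 (-1.15 and -1.0), and by FBLN1 without BF-4d replicate 3 (1.15).

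From day 4 to day 8 in BF, FBLN1 fell by 1.72 (SE 0.32, adjusted p = 8.57e-04), 1 of 10 genes beside 2.93% of all tested genes, and was not called with only the 6 compared libraries. The median was 0.09 against -0.05. POSTN differed by -1.05 and was not called (adjusted p = 0.0544), but was called without BF-4d replicate 3 (-1.60, adjusted p = 9.96e-04). ELN differed by 1.25 (adjusted p = 0.0186) and was called without BF-2d replicate 3 (adjusted p = 6.54e-04), with a pseudocount of 0.1 and after median ratio scaling or quantile normalization.

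In IMF from day 0 to day 2, FBLN1 rose by 2.32 (SE 0.32, adjusted p = 1.14e-04), and it was the 1 gene of the 10 called, beside 0.787% of all tested genes (medians -0.14 and -0.01). From day 2 to day 4 in IMF, 0 of the 10 were called and 3 had an unadjusted p below 0.05, beside 0.0372% of all tested genes called. By limma, 6 of all genes were called over that interval (10 without BF-2d replicate 3, and 2 without IMF-2d replicate 2 or IMF-4d replicate 2) and 1345 had an unadjusted p below 0.05, and POSTN had the largest difference of the 10 (1.47, adjusted p = 0.111), called with only the 6 compared libraries. The median was 0.31 against 0.02.

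From day 4 to day 8 in IMF, TNC rose by 1.25 (SE 0.13, adjusted p = 6.31e-07), SPP1 rose by 1.97 (SE 0.46, adjusted p = 0.00231) and FBN1 fell by 1.68 (SE 0.33, adjusted p = 5.87e-04). These 3 of 10 genes stand beside 7.25% of all tested genes, and the median was -0.35 against -0.07. Over the same interval the summed adipocyte markers went from 11.4 to 14.3 FPKM in IMF-4d to 97.2 to 143 in IMF-8d, with LPL called higher (4.21) and CEBPA lower (-1.33), and their part in these changes was not tested. The SPP1 call was lost without IMF-4d replicate 3 (1.88, adjusted p = 0.0113) or IMF-8d replicate 1 (1.93, adjusted p = 0.0101). ELN (-1.07, adjusted p = 0.0252) was not called, but was called without BF-2d replicate 3, which is in neither group and entered through the shared spread, and with only the 6 compared libraries. The difference of MGP was -1.67 (SE 0.56), with no test.

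**Figure D3:**
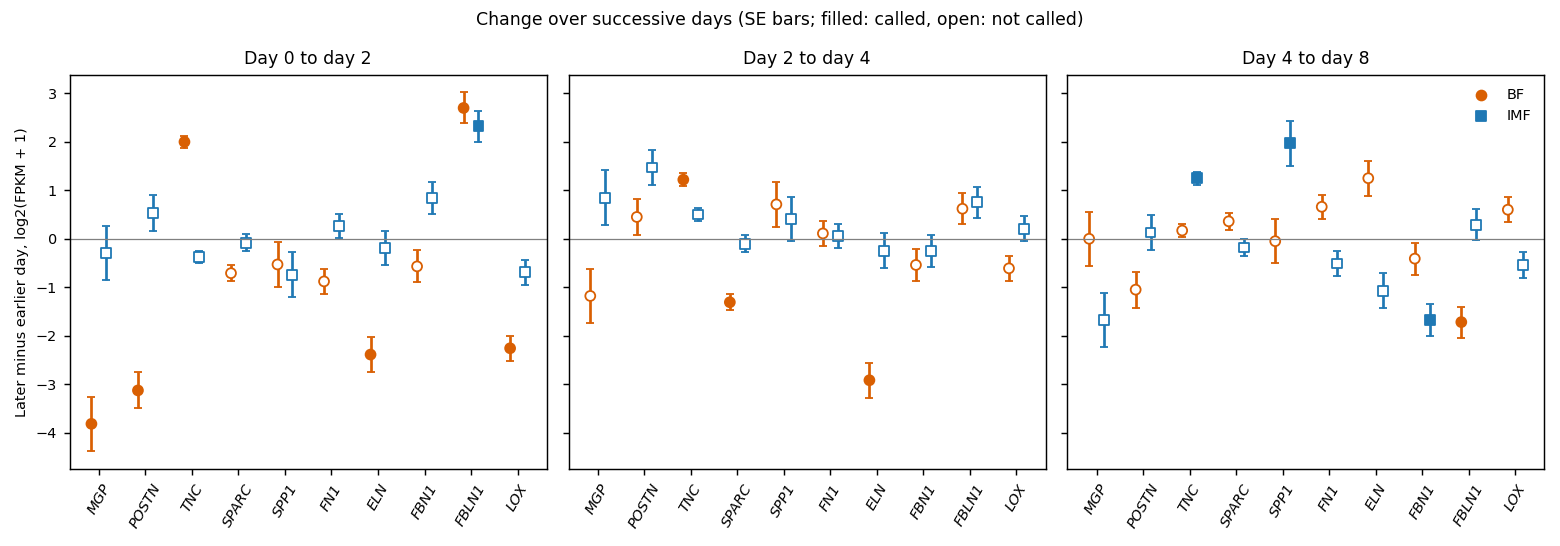
Change between successive days (later minus earlier, log2(FPKM + 1), vertical axis) for each gene in BF (circles) and IMF (squares), with bars of 1 SE. Filled points passed the limits of a call: 6, 3 and 1 in BF and 1, 0 and 3 in IMF over the 3 intervals. The filled points of MGP and POSTN, in BF over the first interval, are descriptions with no test.

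Whether the change differed between depots was tested as an interaction, the IMF change minus the BF change. From day 0 to day 2, 5 of the 10 genes were called, while 2.45% of all tested genes were. TNC rose in BF with no called change in IMF, an interaction of -2.38 (SE 0.19, adjusted p = 3.91e-07), and POSTN fell in BF with no called change in IMF, an interaction of 3.67 (SE 0.53). ELN (2.20, SE 0.51, adjusted p = 0.00852) and LOX (1.57, SE 0.37, adjusted p = 0.00944) were close to the threshold, and MGP had an interaction of 3.54 (SE 0.79). The values of MGP and POSTN share libraries with the differences that drew attention to them and carry no test here, and their count is not read against the share of all genes.

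The calls of ELN and LOX were kept without BF-2d replicate 3 and lost without any other of the 12 compared libraries (BF-0d, IMF-0d and IMF-2d replicates 1, 2 and 3 and BF-2d replicates 1 and 2), with adjusted p-values of 0.0162 to 0.0303 for ELN and 0.0106 to 0.0324 for LOX. They were also lost without 7 (ELN) and 8 (LOX) of the 12 libraries of days 4 and 8, which entered through the shared spread, with adjusted p-values of 0.0107 to 0.0118 and 0.0113 to 0.0131. The MGP interaction ran from 2.78 (without BF-2d replicate 1) to 4.39 (without BF-2d replicate 3) when 1 library was left out, and like ELN and LOX it fell short of the limits of a call without any of the other 11 compared libraries, and without IMF-4d replicate 1 or 2. A pseudocount of 0.1, no filter or only the 12 compared libraries ended them too. The median interaction was 1.29 against 0.02. Without BF-2d replicate 3, ELN was 2.83, LOX 1.84, POSTN 4.05 and TNC -2.52, and FN1 (1.43, adjusted p = 0.00432) and FBN1 (1.92, adjusted p = 9.6e-04) were also called. FBLN1 rose in both depots over this interval, and its interaction was -0.38 (SE 0.45, adjusted p = 0.624).

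From day 2 to day 4, ELN (2.67, SE 0.51, adjusted p = 0.00222) and SPARC (1.20, SE 0.23, adjusted p = 0.0027) fell in BF and had no called change in IMF, 2 of 10 genes beside 3.06% of all (median 0.55). Neither was called with only the compared libraries, nor SPARC after quantile normalization. Without BF-2d replicate 3, ELN was 2.05 and SPARC 0.98, under the fold limit. From day 4 to day 8, TNC (1.08, SE 0.19, adjusted p = 4.52e-04), FBLN1 (2.01, SE 0.45, adjusted p = 0.0035) and ELN (-2.32, SE 0.51, adjusted p = 0.00296) were called, 3 of 10 genes beside 6.39% of all (medians -0.84 and -0.04). TNC was lost after quantile normalization and FBLN1 with only the compared libraries, a setting that added FBN1. ELN was lost without BF-8d replicate 3 (-2.15, adjusted p = 0.0107) and FBLN1 without BF-4d replicate 1 or 2, IMF-4d replicate 3 or IMF-8d replicate 3 (1.61 to 1.96). Calls were gained by SPP1 without BF-4d replicate 1 (2.59) or 3 (1.08), by POSTN without BF-4d replicate 3 (1.73), and by FN1 (-1.18), FBN1 (-1.26) and LOX (-1.14) without BF-2d replicate 2.

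Markers of contractile cells moved with several of these genes. The summed FPKM of 7 smooth muscle and pericyte markers was 2280 to 2419 in BF-0d, 151 to 1006 in BF-2d, 31.5 to 119.7 in BF-4d and 28.6 to 51.0 in BF-8d. In IMF it was 2858 to 3609, 1376 to 1812, 2003 to 2063 and 537 to 656. The sum was mostly ACTA2 (up to 2128 FPKM) and TAGLN (up to 1379), while MYH11 reached 0.808, and the single markers did not all follow it. Between depots 1, 5, 5 and 4 of the 7 were called higher in IMF on days 0, 2, 4 and 8, and RGS5 was called lower on day 4 (-2.29), beside 2.58%, 4.74%, 11.3% and 6.96% of all tested genes called, with medians of 0.71, 1.90, 2.80 and 1.72 against 0.02, 0.07, 0.07 and 0.04 for all. In BF 4 fell from day 0 to day 2, 3 fell and RGS5 rose (3.38) from day 2 to day 4, and CSPG4 and NOTCH3 rose and RGS5 fell from day 4 to day 8, beside 6.59%, 3.35% and 2.93% of all tested genes, with medians of -2.16, -0.62 and -0.19. In IMF 1 fell, 0 were called (2 had an unadjusted p below 0.05, beside 1345 of the 16135 tested genes), and 2 fell and RGS5 rose (3.60), beside 0.787%, 0.0372% and 7.25%. RGS5 was 2.90 from day 2 to day 4 in BF without BF-2d replicate 3, and with only the compared libraries its calls on day 4 and in BF were lost. The 1 call on day 0 and the 1 call in IMF from day 0 to day 2 were of CNN1, and both were lost without any one of their 6 libraries. ACTA2, the smooth muscle actin gene, was 588 FPKM in BF-2d replicate 3 and 61.2 and 102 in the other BF-2d libraries. The sum of 5 stromal markers was 6733 to 7590 in BF-0d, 3307 to 7033 in BF-2d, 1835 to 2503 in BF-4d and 1917 to 2222 in BF-8d. In IMF it was 7005 to 7507, 6083 to 6775, 6075 to 6336 and 3215 to 3633 on days 0, 2, 4 and 8. The sum followed COL1A1, a collagen type I chain gene, whose BF means were 5753, 2996, 676 and 845 FPKM. The stromal markers did not move in 1 direction: in BF from day 0 to day 2, COL1A1 was called lower (-1.10, or -1.56 without BF-2d replicate 3) and PDGFRA higher (1.86, or 1.87 without it), with a median of 0.13 over the 5, and the medians of the later BF intervals were -0.21 and -0.12. On day 4, COL1A1 and DCN were called higher in IMF and PDGFRA and PDGFRB lower, with a median of 0.01. Of the 5, 1 was called lower in IMF on day 2, and 1 higher and 1 lower on day 8, beside 4.74% and 6.96% of all tested genes. From day 2 to day 4 in BF 1 fell, beside 3.35%, and from day 4 to day 8 in IMF 1 fell, beside 7.25%, with a median of -0.56. The COL1A1 call from day 0 to day 2 was lost without BF-0d replicate 2 or 3 or BF-2d replicate 1 or 2 and after median ratio scaling, the PDGFRB call without BF-4d replicate 2 or IMF-4d replicate 3 and after quantile normalization, and with only the compared libraries neither COL1A1 nor PDGFRA was called from day 0 to day 2. No marker of the smooth muscle list or the stromal list was listed at 0 in all libraries of a group. Of the other marker lists, 1 endothelial gene passed the filter, PECAM1, which was called higher in IMF on day 8 (1.03, lost without BF-8d replicate 1 or IMF-8d replicate 3 and after median ratio scaling or quantile normalization) and lower in BF from day 0 to day 2 (-1.13, or -1.18 without BF-2d replicate 3, lost without BF-2d replicate 2, after quantile normalization and with only the compared libraries). The endothelial markers CDH5, KDR and TEK reached no more than 0.101 FPKM. Of 4 tested cartilage and bone markers, ACAN was called higher in IMF on days 2 and 4 (1.16 and 2.02), SOX9 lower on day 4 (-1.07) and RUNX2 lower on day 8 (-1.09), and ACAN fell by 1.79 in IMF from day 4 to day 8. ACAN on day 2 was 1.58 without BF-2d replicate 3 and was lost without BF-2d replicate 1 or 2 or IMF-2d replicate 3 and with only the compared libraries, and SOX9 was lost without BF-4d replicate 1 or IMF-4d replicate 1. The part of these markers in the results was not tested.

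Related genes were counted from 4 lists. Of 15 tested elastic fibre genes (microfibril proteins, fibulins, emilins and latent TGF-beta binding proteins), 0 were called on day 0, 1 on day 2 (higher in IMF), 9 on day 4 (all higher) and 9 on day 8 (7 higher and 2 lower), beside 2.58%, 4.74%, 11.3% and 6.96% of all tested genes called, with median differences of 0.05, 0.3, 1.19 and 0.99 against 0.02, 0.07, 0.07 and 0.04 for all tested genes. On day 0, 4 of the 15 had an unadjusted p below 0.05, beside 4125 of the 16135 tested genes. In BF, 4 fell from day 0 to day 2, 7 fell and 1 rose from day 2 to day 4, and 2 rose from day 4 to day 8, beside 6.59%, 3.35% and 2.93% of all tested genes. In IMF, 1 rose, 1 rose and 1 fell over the 3 intervals, beside 0.787%, 0.0372% and 7.25%. The interaction was called for 2, 8 and 3 of them over the 3 intervals, beside 2.45%, 3.06% and 6.39%. Over the same intervals it was called for 0, 0 and 2 of the 7 genes of the lysyl oxidase family and processing, 1, 0 and 7 of the 13 matricellular relatives and 0, 0 and 1 of the 11 receptor genes described below, the last being ITGB5. Where 0 were called, genes with an unadjusted limma p below 0.05 were counted over the first and second intervals. They were 4 and 3 of the 7 genes of the lysyl oxidase family and processing, and 6 and 3 of the 11 receptor genes. Of the 13 matricellular relatives, 8 were below 0.05 over the second interval. Among all 16135 tested genes, 4869 and 4621 were below 0.05 over the first and second intervals.

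MFAP5, a microfibril-associated glycoprotein gene, was 77.7 ± 1.5 FPKM in IMF-4d and 3.24 ± 2.25 in BF-4d (SD, n = 3 each), a difference of 4.37 (SE 0.29, adjusted p = 8.96e-10), and 4.05 on day 8 (adjusted p = 2.91e-09). FBLN2, which encodes fibulin-2, was 303 ± 7.56 and 39.4 ± 25.7 FPKM on day 4, a difference of 3.13 (SE 0.34, adjusted p = 4.38e-07). MFAP4 was 2.40 higher in IMF on day 4 (adjusted p = 1.12e-05), MFAP2 2.30 (adjusted p = 9.42e-09) and FBLN7 1.71 (adjusted p = 5.71e-06). FBLN5, whose protein guides elastic fibre assembly, fell by 2.64 in BF from day 0 to day 2 (SE 0.29, adjusted p = 1.74e-06), with a difference of -3.15 without BF-2d replicate 3.

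Of 7 tested genes of the lysyl oxidase family and of matrix processing, 2, 0, 3 and 2 were called between depots on days 0, 2, 4 and 8, in both directions on days 0 and 4, beside 2.58%, 4.74%, 11.3% and 6.96% of all tested genes. The medians were 0.39, 0.09, 0.18 and 0.16 against 0.02, 0.07, 0.07 and 0.04 for all tested genes, and on day 2, 4 of the 7 had an unadjusted p below 0.05, beside 6125 of the 16135 tested genes. Over the 3 intervals, 2 (1 up), 1 (down) and 1 (down) were called in BF, beside 6.59%, 3.35% and 2.93% of all tested genes, and 1 (down), 0 and 2 (1 up) in IMF, beside 0.787%, 0.0372% and 7.25%. From day 2 to day 4 in IMF, 3 of the 7 had an unadjusted p below 0.05, beside 1345 of the 16135 tested genes. LOXL4 fell by 3.58 in BF from day 0 to day 2 (SE 0.38, adjusted p = 1.05e-06), from 58.0 ± 3.26 to 5.80 ± 6.80 FPKM, and the difference was -4.36 without BF-2d replicate 3, which held 13.7 FPKM against 1.68 and 2.07 in the other BF-2d libraries. It was 2.90 higher in IMF on day 4 (adjusted p = 5.06e-06). LOXL3 was higher in IMF on day 0 (1.42, adjusted p = 2.61e-08) and day 4 (1.10, adjusted p = 2.33e-07). It was also called higher on day 8, at 38.8 ± 2.01 FPKM in IMF and 18.9 ± 2.00 in BF (SD, n = 3 each). TGM2, which encodes the crosslinking enzyme transglutaminase 2, was 1.70 higher in IMF on day 8 (adjusted p = 4.43e-04).

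Of 13 tested matricellular relatives, 5, 1, 5 and 6 were called between depots, all higher in IMF except 2 on day 4, beside 2.58%, 4.74%, 11.3% and 6.96% of all tested genes, with medians of 0.24, 0.38, 0.47 and 0.74 against 0.02, 0.07, 0.07 and 0.04. In BF 3 rose, then 4 rose and 1 fell, then 3 fell, beside 6.59%, 3.35% and 2.93% of all tested genes. In IMF 0, 0 and 4 (2 up) were called, beside 0.787%, 0.0372% and 7.25%, with 3 and 5 at an unadjusted p below 0.05 over the first intervals, beside 3413 and 1345 of the 16135 tested genes. ECM1 was one of the 2, at 1129 ± 765 FPKM in BF-4d and 41.3 ± 9.25 in IMF-4d, a difference of -4.53 (SE 0.50, adjusted p = 6.62e-07), and in IMF it rose by 4.24 from day 4 to day 8 (adjusted p = 2.53e-06). TGFBI was higher in IMF by 3.48 on day 0 (adjusted p = 8.9e-07) and 3.27 on day 8 (adjusted p = 1.07e-06). SMOC1, a SPARC-related gene, was higher by 3.21 on day 8 (adjusted p = 4.33e-07). TNXB, the tenascin-X gene, was called on all 4 days, from 1.48 on day 8 to 3.08 on day 4, and on day 2 by 2.96, or 3.22 without BF-2d replicate 3. GAS6 was 2.24 higher on day 4 (adjusted p = 4.81e-05) and SPOCK3 1.38 on day 8 (adjusted p = 8.06e-05).

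Of 11 tested receptor genes, 0, 2, 3 and 3 were called between depots on days 0, 2, 4 and 8, 1 of them lower in IMF (on day 4), beside 2.58%, 4.74%, 11.3% and 6.96% of all tested genes, with medians of 0.01, 0.33, -0.17 and 0.11 against 0.02, 0.07, 0.07 and 0.04, and on day 0, 4 had an unadjusted p below 0.05, beside 4125 of the 16135 tested genes. In BF 1 rose and 3 fell, then 1 rose, then 1 fell, beside 6.59%, 3.35% and 2.93% of all tested genes. In IMF 0, 0 and 3 (2 up) were called, beside 0.787%, 0.0372% and 7.25%, with 2 and 0 at an unadjusted p below 0.05 over the first intervals, beside 3413 and 1345 of the 16135 tested genes. ITGA8, the integrin alpha-8 chain gene, was 39.0 ± 3.07 FPKM in IMF-4d and 5.58 ± 1.27 in BF-4d, a difference of 2.62 (SE 0.35, adjusted p = 6.58e-06). ITGB3 was higher in IMF on days 2, 4 and 8, by 1.86, 2.07 and 1.67, and on day 2 by 2.38 without BF-2d replicate 3. ITGB5 fell by 1.34 in BF and rose by 1.16 in IMF from day 4 to day 8, an interaction of 2.50 (SE 0.30, adjusted p = 1.35e-05). With only the compared libraries in the fit, the calls given above for MFAP4, FBLN7 and GAS6 on day 4, ITGB3 on day 2, FBLN5 and LOXL4 in BF from day 0 to day 2 and ITGB5 in BF from day 4 to day 8 were lost, as was LOXL3 on day 4 after median ratio scaling. The lists were chosen with earlier results known, and their counts describe them only.

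**Figure D4:**
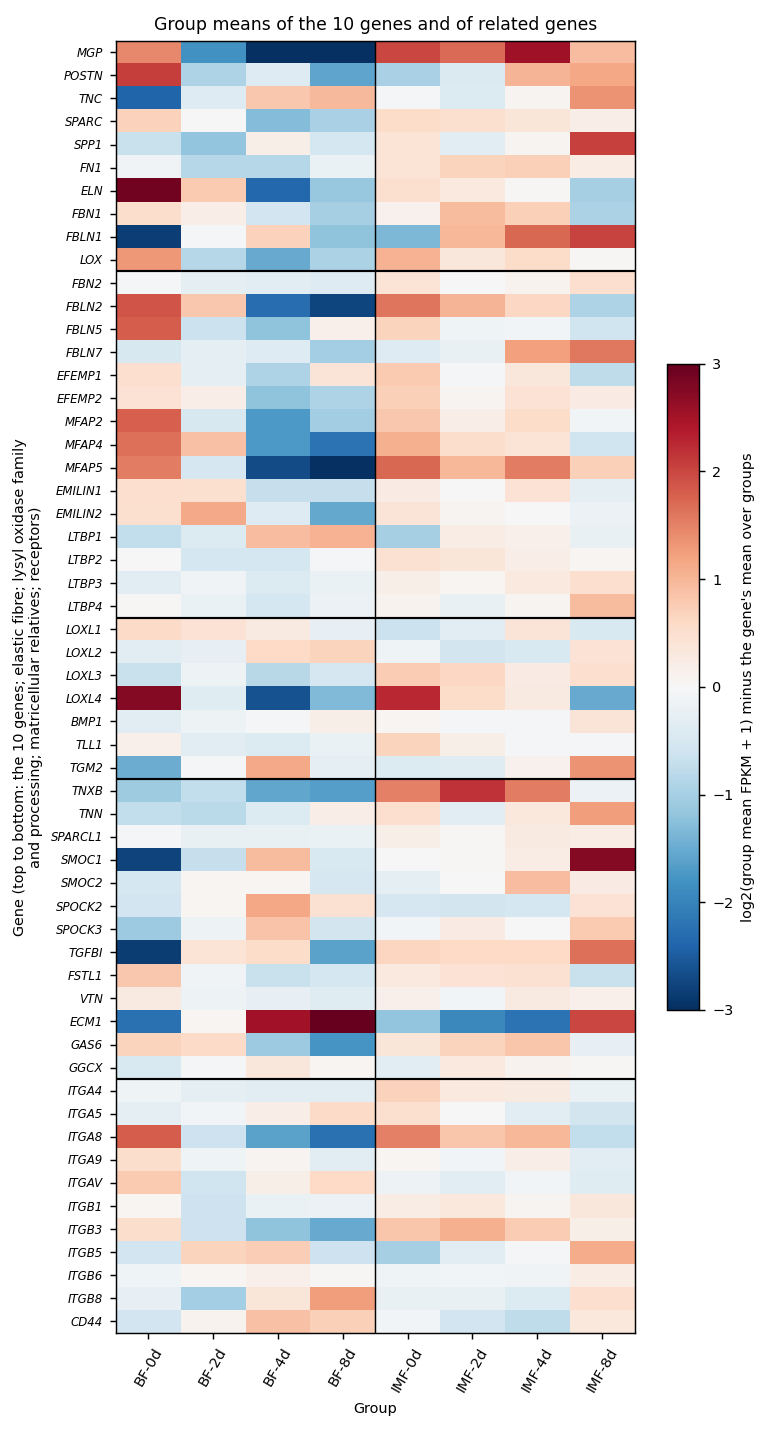
Heat map of log2(group mean FPKM + 1) minus the mean of each gene over the 8 groups (colour scale), with genes in rows (the 10 genes first, then elastic fibre genes, the lysyl oxidase family and processing, matricellular relatives and receptors) and groups in columns. MFAP5, FBLN2 and MFAP4 are low in BF-4d and BF-8d, as is MGP, and colours stop at 3 in either direction.

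The genes most like each member in log2(FPKM + 1) over the 24 libraries were ranked by Pearson's r among 5391 genes with a highest group mean of at least 10 FPKM, as a description. The 24 libraries share days and depots, so the values carry no p. MGP was most like DAB2 (0.962) and CCDC3 (0.955), SPARC most like COL1A2 (0.981), a collagen type I chain gene, and HSPB6 (0.975), and LOX most like GLT8D2 (0.959) and CD109 (0.955). ELN was most like EPDR1 (0.960) and ITGBL1 (0.945), FBN1 most like VPS8 (0.970) and SNTB2 (0.959), and FBLN1 most like ST3GAL5 (0.933) and COMP (0.924). TNC was most like CKB (0.915) and PLOD1 (0.913), FN1 most like SH3D19 (0.920) and ADD3 (0.885), SPP1 most like OSTC (0.885) and CACNG7 (0.859), and POSTN most like PHYH (0.856) and PIK3IP1 (0.855). Among the 10 genes themselves, the highest r were 0.88 for MGP and SPARC, 0.87 for MGP and LOX, 0.87 for SPARC and LOX and 0.80 for SPARC and ELN, and the lowest was -0.89 for TNC and ELN.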

How the data were processed

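RNA-seq was measured in 24 libraries of cultured pig preadipocytes, in 8 groups of 3 by depot and day. The authors trimmed the reads, mapped them to Sscrofa11.1 with HISAT2, and computed FPKM per gene with StringTie 1.3.4d, and the deposited table holds these FPKM values. The authors tested differences with DESeq2 1.6.3, a count model that was not run here on FPKM. The table holds no counts, so depth per library is unknown and counting error could not be computed.

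Genes with a summed FPKM above 1 were tested on log2(FPKM + 1) with limma 3.58.1 in R 4.3.3, in 1 fit over all 24 libraries with trend and robust moderation, and p-values were adjusted by Benjamini-Hochberg over all tested genes. The script was tested on simulated data. Groups came from the labels. The 10 genes were named in every group. From the related lists, genes called in at least 2 of the 4 depot comparisons or at least 2 of the 6 intervals were named, at most 6 per list by the largest difference, and for each of the 10 genes the 2 most correlated others. The members and lists were chosen with earlier results of these data known. Gene positions and sequences came from RefSeq. Alternatives were a pseudocount of 0.1, no filter, a filter of at least 1 FPKM in 3 libraries, median ratio scaling, quantile normalization, only the compared libraries, a replicate block and leaving out each library.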

Additional observations from a re-analysis of the deposited data

Results flagged for a closer look

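The change between days differed between depots, by a test of the difference itself, in 8 comparisons. From day 0 to day 2 the IMF change minus the BF change was -2.38 for TNC, 2.20 for ELN and 1.57 for LOX on the log2(FPKM + 1) scale. From day 2 to day 4 it was 1.20 for SPARC and 2.67 for ELN, and from day 4 to day 8 it was 1.08 for TNC, -2.32 for ELN and 2.01 for FBLN1. Of the calls from day 0 to day 2, those of ELN and LOX were lost without any of the 12 compared libraries other than BF-2d replicate 3, and ended with a pseudocount of 0.1, with no filter and with only the compared libraries. With only the compared libraries, ELN and SPARC from day 2 to day 4 and FBLN1 from day 4 to day 8 were lost too. SPARC was also lost without BF-2d replicate 3 (0.98), and quantile normalization ended the call of SPARC and that of TNC over the last interval. Over the same interval, FBLN1 was lost without 4 of its 12 libraries (BF-4d replicate 1 or 2, IMF-4d replicate 3 or IMF-8d replicate 3) and ELN without BF-8d replicate 3 (-2.15). TNC and ELN each differed in more than 1 interval, both with a change of sign. From day 0 to day 2 the IMF change minus the BF change was 3.54 for MGP and 3.67 for POSTN. Over the alternative settings it ran from 2.78 to 4.39 for MGP and from 3.34 to 4.05 for POSTN. These values share libraries with differences known when the genes were chosen and are descriptions with no test. MGP fell short of the limits of a call without any of the 12 compared libraries other than BF-2d replicate 3.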

How the results depend on the processing

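Over the 10 genes, 20 of 40 depot calls, 10 of 30 BF interval calls, 4 of 30 IMF interval calls and 10 of 30 interaction calls were made, with the MGP and POSTN comparisons that are given without a test included in these counts. Of all tested genes, 2.58% to 11.3% were called between depots, 2.93% to 6.59% over BF intervals and 0.0372% to 7.25% over IMF intervals. For the interactions this share was 2.45% to 6.39%. No called comparison of the 10 genes reversed its direction under any setting, and 20 of the 44 calls were kept under all of them. When only the compared libraries were fitted, the counts were 16, 3, 7 and 5, with fewer samples behind each estimate of spread. Leaving out each library in turn gave 18 to 21 depot calls, 10 to 13 in BF, 3 to 6 in IMF and 7 to 12 interactions. The replicate block gave 20, 10, 4 and 7 calls and ended the interaction calls of MGP, ELN and LOX from day 0 to day 2. Replicate numbers are shared across groups, but same-numbered libraries deviated together with correlations of -0.247 to 0.192 only, and in no comparison were all 3 pairs over 0.1, so they are not shown to pair the samples. Over all genes, a pseudocount of 0.1 raised the calls on days 0, 2, 4 and 8 from 417, 764, 1826 and 1123 to 759, 1474, 3194 and 2154, the BF intervals from 1063, 541 and 472 to 2020, 970 and 916 and IMF from day 4 to day 8 from 1169 to 2103, and lowered IMF from day 2 to day 4 from 6 to 2. With only the compared libraries, 107 genes were called between depots on day 2, 237, 0 and 4 in the BF intervals, where the limma fit with 0 calls had 2981 genes at an unadjusted p below 0.05, and 132 and 33 for the interactions from day 0 to 2 and day 2 to 4, against 395 and 493. Leaving out 1 library moved the calls on day 2 to between 445 (without BF-2d replicate 2) and 1287 (without BF-2d replicate 3), those of the first BF interval to between 698 and 1615 (the same libraries), BF from day 2 to 4 up to 851 (without BF-2d replicate 1), BF from day 4 to 8 to between 295 and 832 (without BF-4d replicates 1 and 3), IMF from day 0 to 2 from 127 down to 69 (without IMF-2d replicate 2), and these interactions to between 193 (without IMF-0d replicate 3) and 1182 (without BF-2d replicate 3) and between 270 (IMF-4d replicate 2 left out) and 879 (BF-2d replicate 1 left out). Median ratio scaling moved the share of higher calls between depots from 72.4% to 64.3% on day 0, 57.3% to 43.2% on day 2, 58.3% to 48.2% on day 4 and 62.0% to 48.5% on day 8, and quantile normalization moved them to 62.3%, 47.9%, 50.5% and 49.9%. Median ratio scaling also moved the share of rises from 61.0% to 75.1% in BF and 57.5% to 69.7% in IMF from day 4 to day 8. The replicate block changed no other call of the 10 genes. FPKM without counts limits what can be said of SPP1 and the low BF values of MGP and ELN.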
